A study of Mus musculus with 16 samples.

Results

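Histone H3.1 carrying the G34W substitution was compared with histone H3.3 carrying the same substitution, in 4 of the 16 libraries of the series (2 for each histone) and over all 12611 of the 20325 listed genes whose mean over the 4 libraries was at least 10 in the deposited unit. The cells were C3H10T1/2, a mouse fibroblast-like line of mesenchymal stem cell type that can form cartilage, bone and fat cells. They stably expressed a histone H3 transgene from a lentivirus, with 2 days of transduction and then 4 days of selection in puromycin at 1.5 µg/ml, and no loss of the cells' own H3 genes is given in the labels. The groups were H3.1 G34W and H3.3 G34W and, for the same difference of histone type without the substitution, H3.1 wild type and H3.3 wild type, all with 2 libraries each. H3.3 carrying both G34W and K36R, H3.3 K27R and H3.3 G34R, 2 libraries each, enter as a description. The comparison asks whether the substitution goes with the same expression state when another H3 protein carries it. Whether separate cultures gave the 2 libraries of a group is not in the labels, and the p-values therefore speak only of the spread between libraries, which may be technical.

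H3.1 is made in S phase from clustered, replication-dependent genes and is placed on newly copied DNA by the chaperone CAF-1. H3.3 is made throughout the cell cycle and is placed at active genes by HIRA and at repeats by DAXX and ATRX. G34W is known from giant cell tumour of bone, where it lies in an H3.3 gene, and it puts a tryptophan close to the lysine that SETD2 and the NSD enzymes methylate. Methylation of that lysine is known to hinder PRC2, the complex that methylates another lysine of the same tail and silences developmental genes.

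The 4 libraries held an estimated 35580214 and 43047968 reads for H3.1 G34W and 33819157 and 30751553 for H3.3 G34W, and 1 read was worth 0.77 to 1.09 in the deposited unit. Both pairs of libraries differed far beyond sampling noise (chi-square divided by its degrees of freedom 41.95 for H3.1 G34W and 46.7 for H3.3 G34W over genes with whole reads). The H3.3 wild-type pair did not over such genes (0.958) and was averaged to 1 sample. With genes of fractional reads included, that pair was beyond sampling noise too (1.227, chi-square test p = 6.05e-63). The same value was 214.33 for H3.1 G34W and 260.358 for H3.3 G34W. Across genes, replicate 1 of H3.1 G34W correlated more closely with replicate 1 of H3.1 wild type (Pearson r = 0.9925) than with its own replicate (0.9675), and its replicate 2 was closest to H3.3 G34W K36R replicate 2 (0.9743). The H3.3 G34W libraries correlated at 0.9339 with each other, and replicate 2 was closest to a library of H3.3 G34R (0.9795). Libraries of the groups compared correlated at 0.8145 to 0.8874, below every value just given. These are correlations across genes of log2 values, which share the libraries and are not independent replicates. Mesenchymal markers (Thy1, Pdgfra, Pdgfrb, Col1a1, Col1a2, Prrx1 and Vim) summed to 766829.8 and 573737 in H3.1 G34W and 462316 and 674906.5 in H3.3 G34W. These sums were mostly Col1a1, Col1a2 and Vim. Of the 7 markers, 3 were below in H3.1 G34W without overlap (Thy1, Pdgfra and Pdgfrb) and 1 above (Col1a1). Over all genes tested 30.5% were below and 29.5% above. Cd3e, Myod1, Myf5 and Olig2 were listed at 0 in all 4 libraries.

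limma called 1428 genes at an adjusted p under 0.05, which is 11.3% of the genes tested. H3.1 G34W was higher in 561 of them (4.45% of genes tested) and lower in 867 (6.87%). Genes that were lower in H3.1 G34W differed by more: their median log2 fold change was 3.20 in size, 656 of them passed 4-fold and 315 passed 16-fold. Those that were higher had a median of 1.88, with 263 past 4-fold and 69 past 16-fold. After quantile normalization the calls divided into 664 higher and 670.0 lower (49.8% higher, against 39.3% as reported). Rescaling by trimmed means (TMM) gave 592 higher and 847 lower (41.1% higher). The excess of lower genes was thus kept under TMM and lost under quantile normalization. At an unadjusted p under 0.05 there were 3620 genes. The libraries of the groups did not overlap for any of the called genes, and this was also so for 60.0% of all genes tested.

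The count itself depended on which libraries set the spread. It was 525 with the 2 groups fitted alone and 5174 with all 8 groups in the fit, in which the libraries of several groups are close pairs. Without replicate 1 of H3.1 G34W it was 596, without replicate 1 of H3.3 G34W 882, and without replicate 1 or 2 of H3.1 wild type 532 or 526. Of the 1428 genes, 369 (106 higher and 263 lower) were called under each of the 18 alternatives that had been planned, and none changed sign under any of them. The genes described first below belong to this smaller set unless it is said otherwise. The labels give no date or batch for any library, so the histone type and any difference in how these cultures were handled cannot be told apart.

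**Figure D1:**
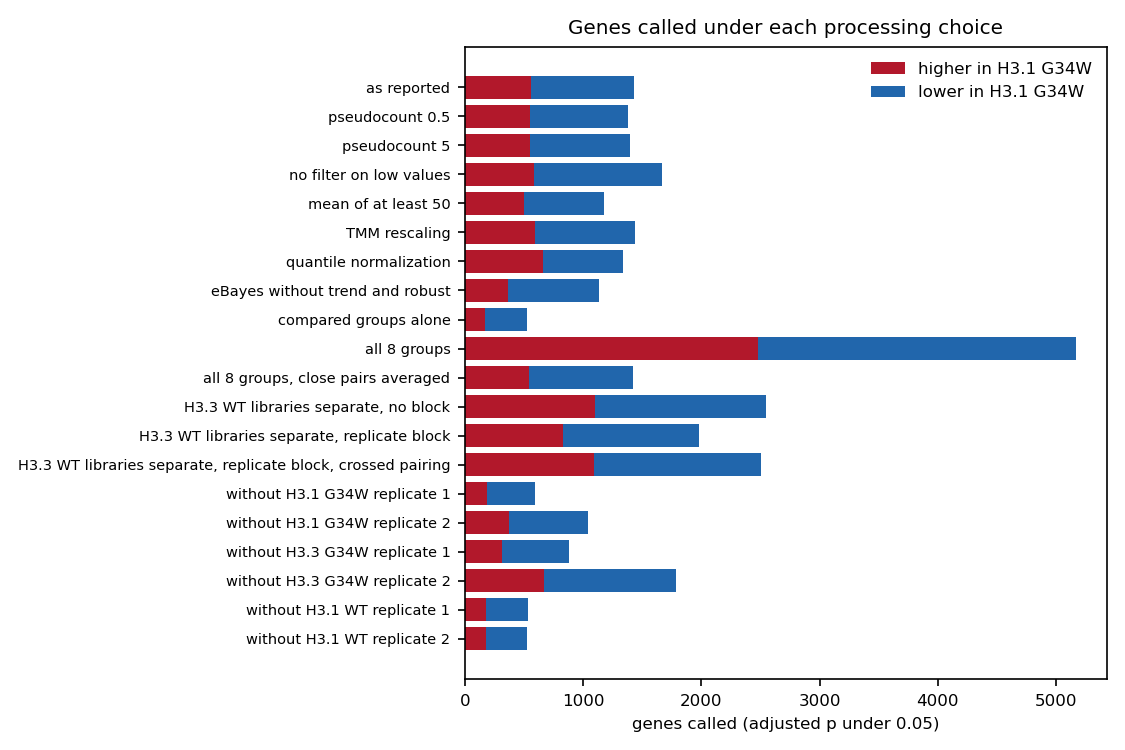
Genes called between H3.1 G34W and H3.3 G34W under each processing choice, with the number of genes on the x axis and the genes higher (red) and lower (blue) in H3.1 G34W stacked. The reported fit called 561 and 867 genes, and the other fits called between 525 and 5174 in all.

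The widest gaps with H3.1 G34W on the higher side ran from a desmosome protein to secreted factors. Pkp2, which encodes the desmosome protein plakophilin 2, was at 1729 and 1389.8 in H3.1 G34W and 5.63 and 13.1 in H3.3 G34W (log2 fold change 7.32 ± 0.45, adjusted p = 5.01e-04). Itih2, a heavy chain of the inter-alpha-trypsin inhibitors that bind hyaluronan, was at 3765 and 3084 in H3.1 G34W and 46.0 and 15.3 in H3.3 G34W (log2 fold change 6.94 ± 0.50, adjusted p = 6.42e-04). Arhgef5, a guanine nucleotide exchange factor, was at 2631 and 1605 in H3.1 G34W and 27.2 and 56.9 in H3.3 G34W (log2 fold change 5.67 ± 0.52, adjusted p = 0.00151). The H3.1 G34W libraries lay close together for these 3 genes and far above both H3.3 G34W libraries. Hist1h2ao, a replication-dependent H2A gene, was at 8224 and 3415 in H3.1 G34W and 20.7 and 25.3 in H3.3 G34W (log2 fold change 7.79 ± 0.45, adjusted p = 5.01e-04), but its copies in the histone cluster are nearly identical and reads may be split among them.

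Several genes in this direction were at or near 0 in H3.3 G34W. Theg, a gene known from spermatids, was at 78.8 and 102 in H3.1 G34W and 0 and 0 in H3.3 G34W, which is at least 29.7-fold higher against a floor of 3 reads per library. Its mean was under that of the stricter filter, so it was called under the other 17 of the 18 alternatives. The proliferins are prolactin-like secreted hormones, and Prl2c2 was at 822 and 185 in H3.1 G34W and 0 and 2.19 in H3.3 G34W, a ratio of 452 with a 95% counting interval of 125 to 3739. Prl2c3 was at 209 and 39.5 in H3.1 G34W and 0 and 0 in H3.3 G34W and thus at least 40.8-fold higher; reads may be shared between these near-identical genes. For both, replicate 1 of H3.1 G34W was several times replicate 2. Gdnf, the glial cell line-derived neurotrophic factor, had the same order, with 582 and 115 in H3.1 G34W and 2.82 and 2.19 in H3.3 G34W (log2 fold change 6.22 ± 0.74, adjusted p = 0.0035), and so had Arhgap36, a GTPase-activating family protein known in mouse cells to activate the Hedgehog factor Gli, with 1067 and 155 in H3.1 G34W and 0 and 2.19 in H3.3 G34W (ratio 538, interval 149 to 4450.3). Kcnj15, an inwardly rectifying potassium channel, was at 129 and 220.2 in H3.1 G34W and 0.460 and 3.23 in H3.3 G34W, a ratio of 119.5 with an interval of 40.6 to 582. Ptchd1, a membrane protein with a patched domain, and the homeobox gene Hdx completed the 12 (239 and 507 in H3.1 G34W and 5.63 and 0.262 in H3.3 G34W for Ptchd1, and 69.4 and 102 in H3.1 G34W and 0.939 and 1.09 in H3.3 G34W for Hdx, which was also under the stricter filter). Groups did not overlap for any of these genes, which the choice by the gap required.

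On the lower side were matrix, signalling and other genes. Eln, which encodes elastin, was at 10.4 and 26.9 in H3.1 G34W and 141239 and 153881 in H3.3 G34W (log2 fold change -13.02 ± 0.44, adjusted p = 4.65e-05), the largest fold change of all genes tested. Both H3.1 G34W libraries lay far below both H3.3 G34W libraries. Epas1, which encodes the hypoxia-inducible factor HIF-2 alpha, was at 11.4 and 11.6 in H3.1 G34W and 13520.4 and 3016 in H3.3 G34W (log2 fold change -8.99 ± 0.67, adjusted p = 7.10e-04). Igf1, the insulin-like growth factor, was at 18.7 and 6.93 in H3.1 G34W and 11137 and 4154 in H3.3 G34W (log2 fold change -9.09 ± 0.61, adjusted p = 5.59e-04). In both of these replicate 1 of H3.3 G34W was well above replicate 2, a difference that was small beside the distance to H3.1 G34W. Gas7, a growth arrest-specific gene, was tighter, at 16.6 and 9.24 in H3.1 G34W and 4556 and 3799.5 in H3.3 G34W (log2 fold change -8.28 ± 0.50, adjusted p = 5.01e-04).

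Other genes in this direction were barely counted in H3.1 G34W. Sfrp2, a secreted Wnt modulator, was at 5.18 and 1.54 in H3.1 G34W and 7748 and 2786 in H3.3 G34W (log2 fold change -10.20 ± 0.70, adjusted p = 5.59e-04). Lect1 encodes chondromodulin, a cartilage protein that inhibits vessel growth, and was at 0 and 1.54 in H3.1 G34W and 1200.4 and 1062 in H3.3 G34W, a ratio of H3.3 G34W over H3.1 G34W of 1286 with a 95% counting interval of 356 to 10627. Bmx, a Tec-family tyrosine kinase, was at 0 and 0 in H3.1 G34W and 805 and 437 in H3.3 G34W, at least 229-fold lower in H3.1 G34W. Ehf, an ETS factor known from epithelia, was at 0 and 0 in H3.1 G34W and 239 and 306 in H3.3 G34W and at least 101-fold lower. Col9a1, a chain of the cartilage collagen IX, was at 12.4 and 11.5 in H3.1 G34W and 2372 and 5538 in H3.3 G34W (log2 fold change -8.13 ± 0.53, adjusted p = 5.59e-04). Fam19a5 encodes a secreted protein and was at 1.04 and 2.31 in H3.1 G34W and 2140.3 and 1338 in H3.3 G34W (log2 fold change -9.35 ± 0.81, adjusted p = 0.00127). For Olfm2, an olfactomedin-domain protein, replicate 1 of H3.3 G34W was far above replicate 2 (2.07 and 3.08 in H3.1 G34W and 10548 and 808 in H3.3 G34W), and for Fxyd6, a regulator of the sodium pump, the order was the other way (2.07 and 5.39 in H3.1 G34W and 995 and 3439.6 in H3.3 G34W). In H3.1 G34W none of these 12 genes, also picked by the gap, passed 26.9 in either library. In such bulk libraries fewer cells of a type and less RNA per cell cannot be told apart.

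**Figure D2:**
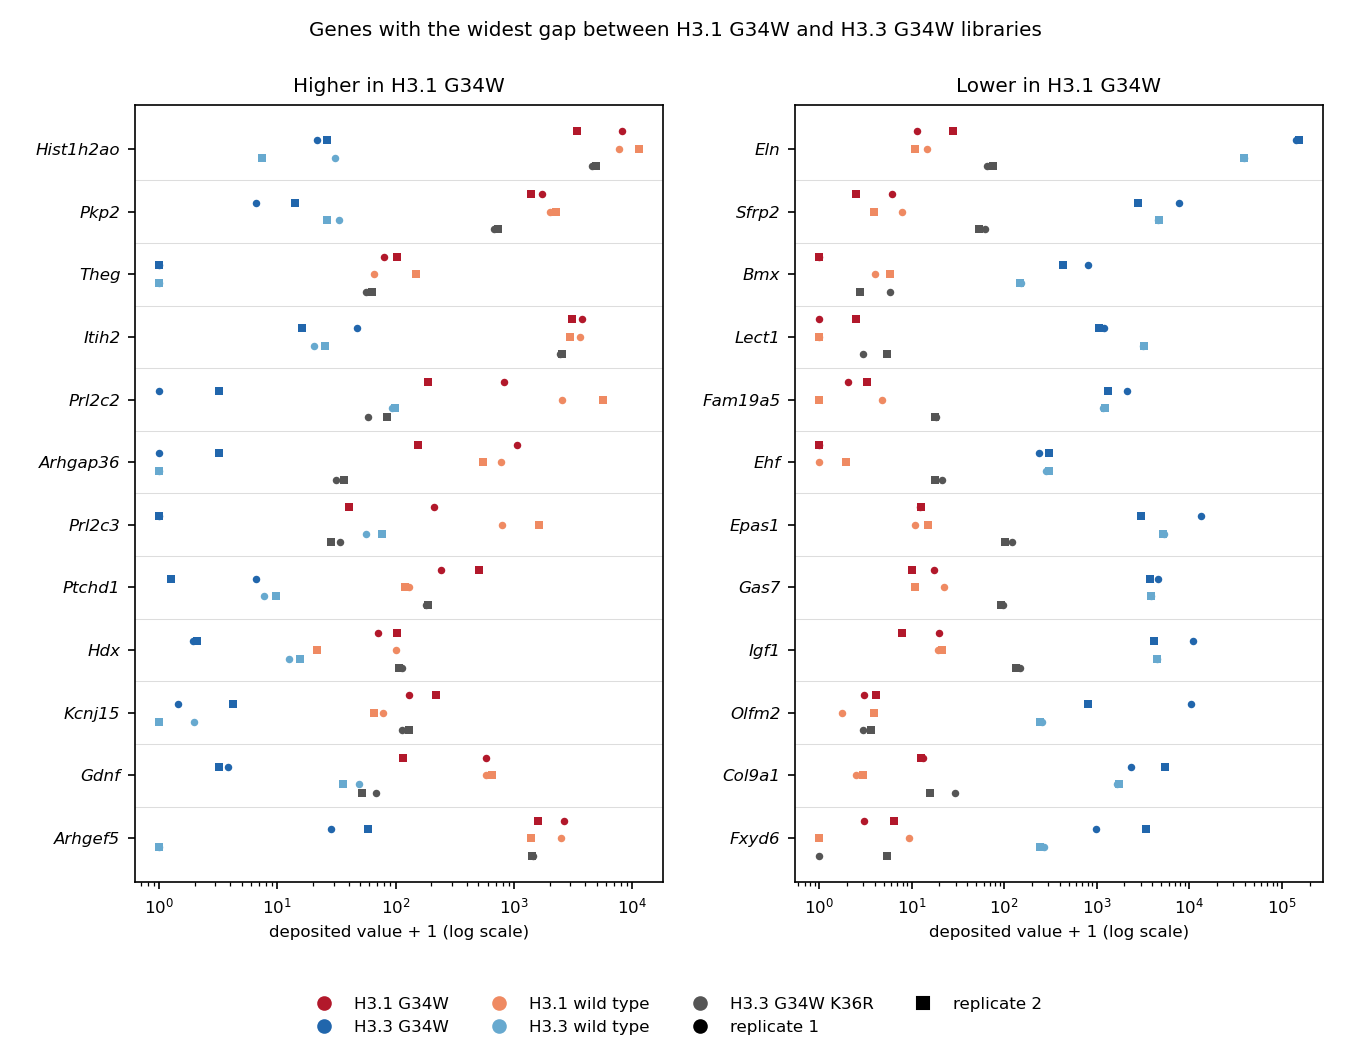
Deposited value plus 1 (log scale) in each library for the 12 genes with the widest gap each way, with circles for replicate 1 and squares for replicate 2. For every gene H3.1 G34W (dark red) and H3.1 wild type (orange) lie on the same side of H3.3 G34W (dark blue), as for Eln at 10.4 and 26.9 in H3.1 G34W against 141239 and 153881 in H3.3 G34W.

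To show what lies before the start of such genes, promoter windows of 300 bases (250 before and 50 after the annotated start) are printed for 2 of the genes that were higher and 2 that were lower. They are RefSeq sequences of GRCm38.p6, whereas the deposited values were made on mm9, so the positions belong to the sequence alone. Itih2 spans chr2:10130634-10130933 (minus strand), Prl2c3 chr13:12800030-12800329 (minus), Sfrp2 chr3:83766071-83766370 (plus) and Lect1, listed there as Cnmd, chr14:79662134-79662433 (minus). Each runs 5′ to 3′ on the gene's strand, and capitals mark TGANTCA, searched on both strands, whose TGACTCA form is known as the AP-1 element bound by Fos and Jun proteins.
Itih2: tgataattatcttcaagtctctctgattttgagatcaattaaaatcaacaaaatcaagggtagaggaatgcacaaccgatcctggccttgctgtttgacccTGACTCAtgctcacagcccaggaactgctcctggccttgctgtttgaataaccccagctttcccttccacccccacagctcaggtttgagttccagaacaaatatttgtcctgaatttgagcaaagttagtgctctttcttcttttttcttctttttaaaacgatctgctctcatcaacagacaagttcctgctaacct
Prl2c3: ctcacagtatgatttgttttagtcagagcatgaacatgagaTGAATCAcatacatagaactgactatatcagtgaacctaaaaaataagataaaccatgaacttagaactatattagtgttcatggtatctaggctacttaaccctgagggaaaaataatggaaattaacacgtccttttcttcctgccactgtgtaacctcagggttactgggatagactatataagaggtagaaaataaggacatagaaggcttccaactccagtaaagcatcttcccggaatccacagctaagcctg
Sfrp2: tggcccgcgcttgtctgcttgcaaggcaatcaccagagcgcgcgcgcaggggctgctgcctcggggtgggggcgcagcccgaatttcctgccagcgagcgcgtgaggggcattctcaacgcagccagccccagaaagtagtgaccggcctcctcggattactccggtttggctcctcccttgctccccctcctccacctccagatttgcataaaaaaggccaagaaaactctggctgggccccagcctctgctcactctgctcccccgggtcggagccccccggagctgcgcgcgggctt
Lect1: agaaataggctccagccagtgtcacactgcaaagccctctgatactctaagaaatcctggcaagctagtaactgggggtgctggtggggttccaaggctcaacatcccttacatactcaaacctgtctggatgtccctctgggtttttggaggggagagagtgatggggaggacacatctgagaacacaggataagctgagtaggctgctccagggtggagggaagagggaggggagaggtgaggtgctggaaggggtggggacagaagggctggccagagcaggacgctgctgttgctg
The Itih2 and Prl2c3 windows hold TGANTCA, and the Sfrp2 and Lect1 windows do not. The printed windows were picked from 8 that were read, and of the other 4, those of Hist1h2ao and Arhgap36 (higher) and of Bmx and Fam19a5 (lower), none holds it. The motif is thus in 2 of 4 higher genes read and in 0 of 4 lower ones, too few to set the directions apart. The motif was 1 of 4 searched after the values had been seen, and 7.81% of the 32851 promoter windows in the table hold it. A match describes letters, not binding. The Sfrp2 window has 22 CpG dinucleotides and a GC content of 66.0%, and those of Itih2, Prl2c3 and Lect1 have 2, 2 and 1. No share over all called genes is given: windows were found for 78.1% of the higher, 74.2% of the lower and 79.4% of all tested genes, under the 80% needed for such a check.

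Counts of members called in a list, here and below, are to be read against 6.87% lower and 4.45% higher over all genes tested. The lists were chosen with earlier results of these data known, so their shares are a description and not a test. Cartilage genes were lower as a group. Of 18 chondrocyte genes tested 12 fell and none rose, with a median log2 fold change of -3.22 (-2.97 with genes at 0 in a group set to their bound) against -0.02 over all genes tested, and 7 fell under each of the 18 alternatives. Matn4, a matrilin of the cartilage matrix, was at 10.4 and 26.2 in H3.1 G34W and 9347 and 3640.1 in H3.3 G34W (log2 fold change -8.38 ± 0.62, adjusted p = 7.10e-04). Comp, the cartilage oligomeric matrix protein, was at 17.6 and 21.6 in H3.1 G34W and 360.4 and 340.0 in H3.3 G34W (log2 fold change -4.10 ± 0.46, adjusted p = 0.00288). Neither had any library of one group near the other. The transcription factor Sox9, a master regulator of cartilage, fell by less, at 3679 and 4037 in H3.1 G34W and 8109.7 and 11154 in H3.3 G34W (log2 fold change -1.30 ± 0.26, adjusted p = 0.0225), and its call was lost in 5 of the 6 fits that left out 1 library (log2 fold change -1.53 to -1.07, adjusted p up to 0.114). Col2a1, the main cartilage collagen, did not follow: it was at 14357 and 6666 in H3.1 G34W and 4377 and 69619.5 in H3.3 G34W (log2 fold change -0.84 ± 1.10, adjusted p = 0.652), with H3.1 G34W between the H3.3 G34W libraries, and without replicate 2 of H3.3 G34W its log2 fold change was 1.16. Runx2, a regulator of cartilage maturation and bone, was at 1531 and 1945 in H3.1 G34W and 2200.4 and 2451 in H3.3 G34W (log2 fold change -0.43 ± 0.25, adjusted p = 0.309).

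Small leucine-rich proteoglycans, which bind collagen fibrils, held the largest share of lower genes. Of 10 tested 8 fell and none rose (median log2 fold change -4.38), 4 of them under each of the 18 alternatives. Prelp was at 587 and 829 in H3.1 G34W and 14769.9 and 40329 in H3.3 G34W (log2 fold change -5.13 ± 0.46, adjusted p = 0.00151). Dcn, which encodes decorin, was at 20.7 and 30.8 in H3.1 G34W and 2701 and 882 in H3.3 G34W (log2 fold change -5.88 ± 0.59, adjusted p = 0.00201). Omd, osteomodulin, was at 322 and 492 in H3.1 G34W and 2376 and 4926 in H3.3 G34W (log2 fold change -3.10 ± 0.39, adjusted p = 0.00416). Fmod, fibromodulin, was at 5.18 and 7.70 in H3.1 G34W and 155 and 1065 in H3.3 G34W (log2 fold change -5.80 ± 0.86, adjusted p = 0.00784), with replicate 2 of H3.3 G34W far above replicate 1. In each case both H3.1 G34W libraries were below both of H3.3 G34W.

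Collagens and glycoproteins were lower in part. Of 23 collagen chains 8 fell and none rose (median -0.87), and the collagen I chains were not among them. Col6a1, a chain of the beaded-filament collagen VI, was at 3649 and 6530.1 in H3.1 G34W and 71653 and 55828 in H3.3 G34W (log2 fold change -3.70 ± 0.39, adjusted p = 0.00236). Its partner chain Col6a2 was at 1036 and 2313 in H3.1 G34W and 37758 and 33154 in H3.3 G34W (log2 fold change -4.51 ± 0.41, adjusted p = 0.00151). Col5a3 was at 452 and 914 in H3.1 G34W and 15201 and 10933 in H3.3 G34W (log2 fold change -4.32 ± 0.38, adjusted p = 0.00138). Col8a2, a chain of the network-forming collagen VIII, was at 29.0 and 88.5 in H3.1 G34W and 1390.0 and 4891 in H3.3 G34W (log2 fold change -5.65 ± 0.71, adjusted p = 0.00414). Col1a1, the main chain of collagen I, was at 290391 and 202433 in H3.1 G34W and 47053 and 187626 in H3.3 G34W (log2 fold change 1.37 ± 0.65, adjusted p = 0.213), where replicate 1 of H3.3 G34W was alone at the low end.

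Among 28 elastic fibre and matrix glycoprotein genes 8 fell and 1 rose (median -0.94), and 5 of the 8 fell under each of the 18 alternatives. Beside Eln, Mfap5, a microfibril protein, was at 267 and 203 in H3.1 G34W and 7366 and 4962 in H3.3 G34W (log2 fold change -4.69 ± 0.41, adjusted p = 0.00127). Fbn2, which encodes fibrillin 2, was at 92.2 and 449.6 in H3.1 G34W and 5432 and 13283 in H3.3 G34W (log2 fold change -5.37 ± 0.73, adjusted p = 0.00553). Efemp2, fibulin 4, was at 2246 and 1421 in H3.1 G34W and 7076 and 6355 in H3.3 G34W (log2 fold change -1.91 ± 0.29, adjusted p = 0.00855). Of 18 matrix proteases and inhibitors 2 fell, against 6.87% of all genes tested. Serpine2, an inhibitor of thrombin and plasminogen activators, was at 1416 and 2169.7 in H3.1 G34W and 62188 and 59825 in H3.3 G34W (log2 fold change -5.12 ± 0.31, adjusted p = 5.01e-04). Timp2 was at 43885 and 36802 in H3.1 G34W and 141593 and 83610.4 in H3.3 G34W (log2 fold change -1.44 ± 0.38, adjusted p = 0.0499). Its call was lost in 5 of the 6 fits without 1 library (adjusted p up to 0.203). Mmp2, a gelatinase, was at 10717 and 14927 in H3.1 G34W and 39188 and 18029.8 in H3.3 G34W (log2 fold change -1.07 ± 0.41, adjusted p = 0.137).

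**Figure D3:**
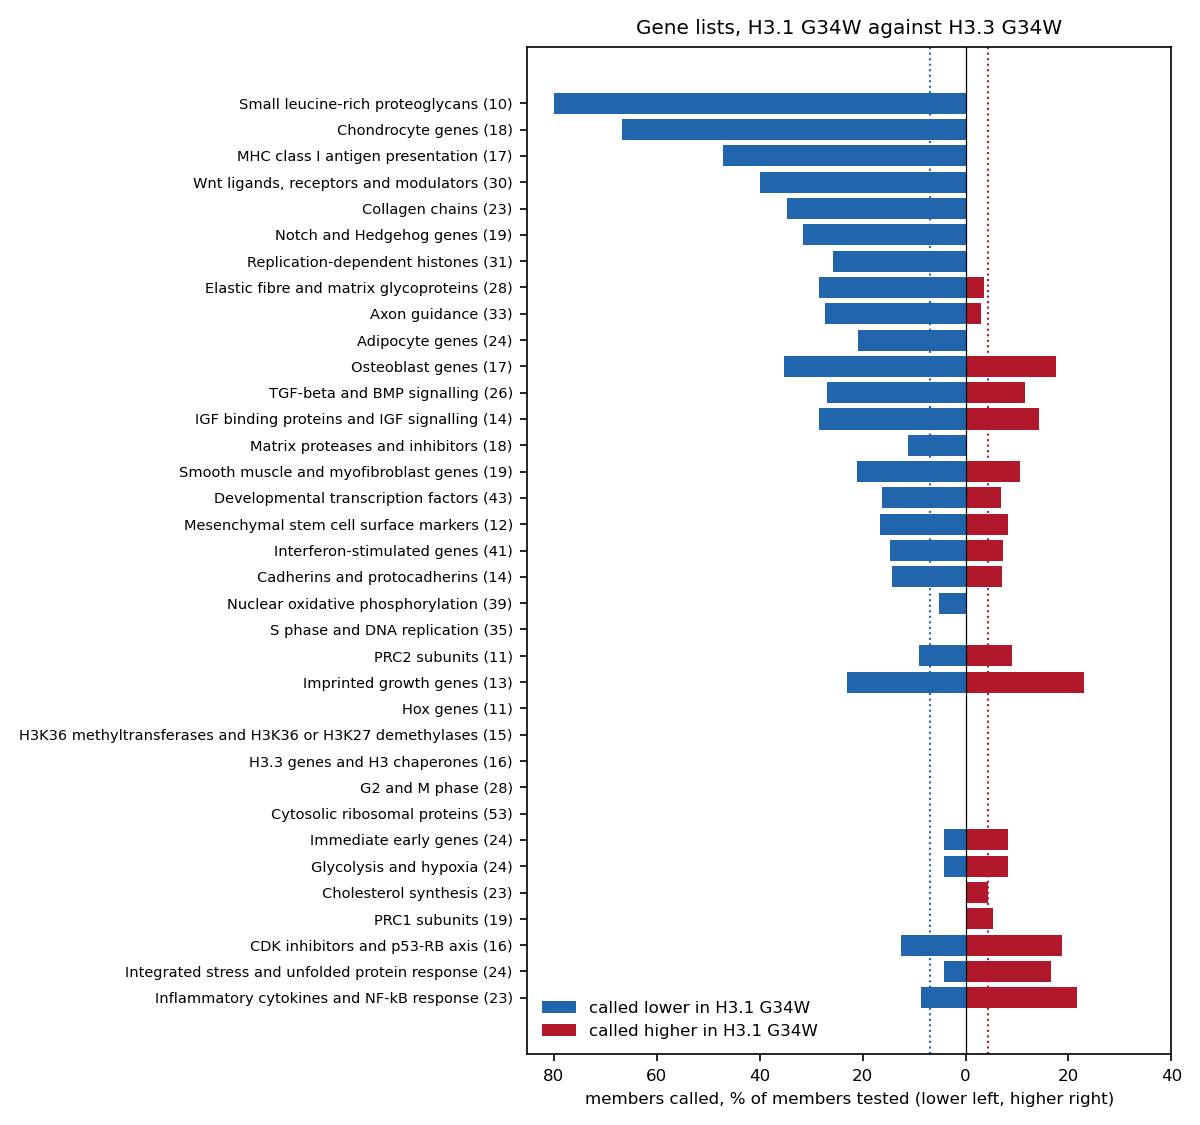
Share of the tested members that was called, for each gene list with at least 10 tested, lower (blue, to the left) and higher (red, to the right) in H3.1 G34W against H3.3 G34W, with the number tested in brackets and dotted lines at the shares over all genes tested (6.87% lower, 4.45% higher). Lower calls reach 8 of 10 small leucine-rich proteoglycans and 12 of 18 chondrocyte genes, while the S phase, G2 and M phase and ribosomal lists have none.

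Wnt genes were lower from secreted factors to receptors. Of 30 tested 12 fell and none rose (median -1.65), 4 of them under each of the 18 alternatives. Beside Sfrp2, the receptor Fzd8 was at 1034 and 1164 in H3.1 G34W and 6307 and 4860.4 in H3.3 G34W (log2 fold change -2.33 ± 0.25, adjusted p = 0.00256). The co-receptor Lrp5 was at 919 and 1256 in H3.1 G34W and 8570.0 and 12293 in H3.3 G34W (log2 fold change -3.25 ± 0.36, adjusted p = 0.00282). Notum, a secreted enzyme that removes the lipid of Wnt ligands, was at 3.11 and 3.85 in H3.1 G34W and 89.2 and 91.9 in H3.3 G34W (log2 fold change -4.36 ± 0.64, adjusted p = 0.00725; under the mean of the stricter filter and called under the other 17 alternatives). Of 19 Notch and Hedgehog genes 6 fell and none rose (median -1.69), and 4 of them fell under each of the 18 alternatives. The ligand Jag1 was at 1325 and 1547 in H3.1 G34W and 9089.6 and 14622 in H3.3 G34W (log2 fold change -3.01 ± 0.31, adjusted p = 0.00232). The receptor Notch1 was at 419.7 and 708 in H3.1 G34W and 6745 and 6045 in H3.3 G34W (log2 fold change -3.55 ± 0.40, adjusted p = 0.00293). The Notch target Hey1 was at 33.2 and 26.2 in H3.1 G34W and 1299 and 833 in H3.3 G34W (log2 fold change -5.09 ± 0.44, adjusted p = 0.00127). Boc, a co-receptor for Hedgehog, was at 409 and 1489.9 in H3.1 G34W and 11301 and 8733 in H3.3 G34W (log2 fold change -3.67 ± 0.56, adjusted p = 0.00855). For all 4 both H3.1 G34W libraries were below both of H3.3 G34W.

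TGF-beta and BMP genes moved in both directions, 7 of 26 lower and 3 higher (median -0.40). Grem1, a secreted BMP antagonist, was at 2175 and 2987 in H3.1 G34W and 163 and 61.2 in H3.3 G34W (log2 fold change 4.66 ± 0.54, adjusted p = 0.00301). On the lower side, the ligand Tgfb2 was at 1169 and 1112 in H3.1 G34W and 3988 and 3598 in H3.3 G34W (log2 fold change -1.73 ± 0.23, adjusted p = 0.00514). Smad6, an inhibitory SMAD, was at 789 and 923 in H3.1 G34W and 6230.4 and 6494 in H3.3 G34W (log2 fold change -2.90 ± 0.24, adjusted p = 0.0011). Chrdl1, a chordin-like antagonist, was at 0 and 1.54 in H3.1 G34W and 414 and 89.7 in H3.3 G34W (ratio of H3.3 G34W over H3.1 G34W 299, 95% counting interval 82.4 to 2475). An antagonist was thus found on each side. Axon guidance genes gave 9 lower and 1 higher of 33 (median -0.37). Slit3, a secreted guidance cue, was at 11.4 and 51.6 in H3.1 G34W and 3731 and 1691 in H3.3 G34W (log2 fold change -6.62 ± 0.78, adjusted p = 0.00342). Its receptor Robo1 was at 5.18 and 2.31 in H3.1 G34W and 121 and 254 in H3.3 G34W (log2 fold change -5.28 ± 0.93, adjusted p = 0.0138). The membrane ligand Efnb1 was at 309 and 378 in H3.1 G34W and 1362 and 2168 in H3.3 G34W (log2 fold change -2.33 ± 0.32, adjusted p = 0.00584).

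Growth factor genes of the IGF axis were divided. Of 14 tested 4 fell and 2 rose. The 2 that rose encode RNA-binding proteins of Igf2 mRNA. Igf2bp2 was at 4445 and 3986 in H3.1 G34W and 625 and 715 in H3.3 G34W (log2 fold change 2.65 ± 0.25, adjusted p = 0.00163). Igf2bp3 was at 737 and 333 in H3.1 G34W and 46.9 and 55.8 in H3.3 G34W (log2 fold change 3.25 ± 0.50, adjusted p = 0.00878). Igf2 itself was at 11.4 and 43.1 in H3.1 G34W and 1249.7 and 212 in H3.3 G34W (log2 fold change -4.46 ± 0.93, adjusted p = 0.0247), and its call was lost in 4 of the 6 fits without 1 library (adjusted p up to 0.104). Of 13 imprinted growth genes 3 rose and 3 fell. Mest, expressed from the paternal copy, was at 226 and 731 in H3.1 G34W and 4590.0 and 5234 in H3.3 G34W (log2 fold change -3.59 ± 0.52, adjusted p = 0.00678). Dlk1 was at 21.8 and 21.6 in H3.1 G34W and 135 and 582 in H3.3 G34W (log2 fold change -3.64 ± 0.86, adjusted p = 0.0359). Ndn, which encodes necdin, was at 1751 and 1257 in H3.1 G34W and 700.2 and 616 in H3.3 G34W (log2 fold change 1.18 ± 0.29, adjusted p = 0.0436). Dlk1 lost its call in 5 and Ndn in 6 of these 6 fits (adjusted p up to 0.116 and 0.231).

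Differentiation genes of the other mesenchymal fates followed, to be read against 6.87% lower and 4.45% higher over all genes tested. Of 24 adipocyte genes 5 fell and none rose (median -1.81), and replicate 1 of H3.3 G34W stood apart in this list. Plin1, Cfd, Cidec, Retn and Cd36, genes of mature fat cells, were listed at 0 in both H3.1 G34W libraries and in replicate 2 of H3.3 G34W, and had 825, 669, 329, 140.0 and 65.7 in its replicate 1. The part of that library in the median was not tested. The fat cell regulator Cebpa was at 79.8 and 87.8 in H3.1 G34W and 1953 and 1667 in H3.3 G34W (log2 fold change -4.41 ± 0.35, adjusted p = 0.00108). Zfp423, another regulator of fat cell fate, was at 6.22 and 6.16 in H3.1 G34W and 1448 and 449 in H3.3 G34W (log2 fold change -6.81 ± 0.68, adjusted p = 0.00191). Dgat2, an enzyme of triglyceride synthesis, was at 93.3 and 101 in H3.1 G34W and 1831 and 869 in H3.3 G34W (log2 fold change -3.69 ± 0.42, adjusted p = 0.00293). Pparg, the nuclear receptor that directs fat cell formation, was at 889 and 874 in H3.1 G34W and 2384 and 582 in H3.3 G34W (log2 fold change -0.42 ± 0.57, adjusted p = 0.668). Adipoq, the fat cell hormone adiponectin, was at 1.04 and 0.770 in H3.1 G34W and 4082 and 7.65 in H3.3 G34W (log2 fold change -6.63 ± 2.39, adjusted p = 0.118), where replicate 1 of H3.3 G34W alone was high. Osteoblast genes gave 6 lower and 3 higher of 17, and 1 lower and 1 higher call held under each of the 18 alternatives. Pth1r, the receptor of parathyroid hormone, was at 7.25 and 12.3 in H3.1 G34W and 713 and 903 in H3.3 G34W (log2 fold change -6.26 ± 0.58, adjusted p = 0.00156). Alpl, alkaline phosphatase, was at 0 and 0 in H3.1 G34W and 57.3 and 96.2 in H3.3 G34W, at least 28.3-fold lower. Tnfrsf11b, which encodes osteoprotegerin, the decoy receptor that restrains osteoclasts, was higher, at 21256 and 22063 in H3.1 G34W and 2104 and 3335 in H3.3 G34W (log2 fold change 3.03 ± 0.30, adjusted p = 0.00195). Of 19 smooth muscle genes 4 fell and 2 rose (median -0.05). Without overlap 6 were below and 5 above, near the 30.5% and 29.5% of all genes tested. Cnn1, calponin, was at 7.25 and 2.31 in H3.1 G34W and 415 and 127 in H3.3 G34W (log2 fold change -5.46 ± 0.81, adjusted p = 0.00778). Ankrd1, a target of YAP, was at 1504 and 221 in H3.1 G34W and 10.3 and 42.6 in H3.3 G34W (log2 fold change 4.70 ± 0.93, adjusted p = 0.021), a call that was lost in 3 of the 6 fits without 1 library (adjusted p up to 0.0795).

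Among 12 markers of the mesenchymal stem cell surface 2 were called lower and 1 higher, against 6.87% and 4.45% of all genes tested. Alcam, the adhesion molecule CD166, was at 9087 and 10371 in H3.1 G34W and 166 and 405 in H3.3 G34W (log2 fold change 5.22 ± 0.41, adjusted p = 9.16e-04). Eng, endoglin, was at 353 and 495 in H3.1 G34W and 1478 and 2367 in H3.3 G34W (log2 fold change -2.16 ± 0.33, adjusted p = 0.00853). Pdgfra, a platelet-derived growth factor receptor, was at 1051 and 2312 in H3.1 G34W and 12776 and 6504 in H3.3 G34W (log2 fold change -2.55 ± 0.50, adjusted p = 0.0201), a value that missed the threshold in 4 of the 6 fits without 1 library (adjusted p up to 0.0862). Markers of other cell types were mostly at low levels. Without overlap, 30.5% of all genes tested were below in H3.1 G34W and 29.5% above. For the neural, epithelial and leukocyte classes, the counts of markers below, given next, are near the first share. Above were 0 of 7 neural, 0 of 8 epithelial and 1 of 10 leukocyte markers. Many of these markers were near 0, whereas the genes tested had a mean of at least 10. Some markers counted had few reads, such as Tie1 (0 and 0 in H3.1 G34W and 2.8 and 4.4 in H3.3 G34W). Of 7 endothelial markers 4 were below in H3.1 G34W without overlap, and their sum was 128.5 and 312 in H3.1 G34W and 888 and 3259 in H3.3 G34W, mostly through Tek. Of 7 neural markers 2 were below, and the sum was 47.7 and 66.99 in H3.1 G34W and 478 and 626 in H3.3 G34W, mostly through Tubb3 and Gfap. Skeletal muscle markers (4 of 7 below) summed to 123 and 31.6 in H3.1 G34W and 437 and 446 in H3.3 G34W, epithelial ones (3 of 8 below) to 57.0 and 87.0 in H3.1 G34W and 53.5 and 371 in H3.3 G34W, and leukocyte ones (2 of 10 below, 1 above) to 199.7 and 248 in H3.1 G34W and 400.3 and 244 in H3.3 G34W. Ptprc, Epcam, Myod1, Olig2 and Sox10, defining markers of the leukocyte, epithelial, muscle and neural classes, were at 0 or near 1 in all 4 libraries. The endothelial markers Cdh5 and Pecam1 were not: Cdh5 was at 1.04 and 0 in H3.1 G34W and 36.6 and 70.0 in H3.3 G34W (ratio of H3.3 G34W over H3.1 G34W 118, 95% counting interval 20.7 to 4696). Pecam1 was at 1.0 and 0 in H3.1 G34W and 9.4 and 5.5 in H3.3 G34W. Other endothelial markers overlapped between the groups. Kdr was at 5.2 and 0.8 in H3.1 G34W and 4.7 and 0 in H3.3 G34W. Vwf was at 53.9 and 83.2 in H3.1 G34W and 4.7 and 141.1 in H3.3 G34W. Emcn was at 0 and 0 in H3.1 G34W and 0 and 1.1 in H3.3 G34W. The part of such cells in the differences was not tested.

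Immune genes were read by class. Of 17 MHC class I antigen presentation genes 8 fell and none rose (median -1.31). H2-K1, a classical class I heavy chain, was at 334 and 578 in H3.1 G34W and 1832 and 1332 in H3.3 G34W (log2 fold change -1.83 ± 0.38, adjusted p = 0.0236). Tap1, a chain of the peptide transporter, was at 47.7 and 156 in H3.1 G34W and 731 and 549 in H3.3 G34W (log2 fold change -2.86 ± 0.58, adjusted p = 0.0228). None of these 8 calls held under every alternative, and both of these were lost in 4 of the 6 fits without 1 library (adjusted p up to 0.111 and 0.0756). H2-Q7, at 1.71 and 10.6 in H3.1 G34W and 127 and 96.1 in H3.3 G34W, shares reads with near-identical class I genes. Of 41 interferon-stimulated genes, a list that also holds Tap1, 6 fell and 3 rose (median -0.91), against 6.87% and 4.45% of all genes tested. Iigp1, an interferon-inducible GTPase, was at 1.04 and 10.0 in H3.1 G34W and 547 and 180.4 in H3.3 G34W (log2 fold change -6.06 ± 0.93, adjusted p = 0.00855). Irgm1 of the same GTPase superfamily was at 2939 and 2913 in H3.1 G34W and 1216 and 1041 in H3.3 G34W (log2 fold change 1.38 ± 0.24, adjusted p = 0.0131). Ifi204 was at 1329 and 1347 in H3.1 G34W and 485 and 530.2 in H3.3 G34W (log2 fold change 1.40 ± 0.25, adjusted p = 0.0138). Without 1 library, Irgm1 was lost in 1 and Ifi204 in 3 of the 6 fits (adjusted p up to 0.0698 and 0.0691, both without replicate 1 of H3.1 G34W).

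Inflammatory genes were higher in 5 cases and lower in 2 of 23 (median -0.42). Tnfaip3, the NF-kB inhibitor A20, was at 1580.2 and 673 in H3.1 G34W and 131 and 149.8 in H3.3 G34W (log2 fold change 2.87 ± 0.43, adjusted p = 0.00766). Ptgs2, cyclooxygenase 2, was at 9628 and 3199 in H3.1 G34W and 100.4 and 511 in H3.3 G34W (log2 fold change 4.61 ± 0.76, adjusted p = 0.0112). The chemokine Ccl2, which attracts monocytes, was at 1578 and 578 in H3.1 G34W and 138 and 133 in H3.3 G34W (log2 fold change 2.81 ± 0.46, adjusted p = 0.0113). Its neighbour in function Ccl7 was at 194 and 279 in H3.1 G34W and 72.3 and 35.0 in H3.3 G34W (log2 fold change 2.19 ± 0.47, adjusted p = 0.0274). Cxcl5 went with no group, at 87.0 and 309 in H3.1 G34W and 924 and 61.2 in H3.3 G34W (log2 fold change -0.54 ± 1.15, adjusted p = 0.791). Without 1 library, Ptgs2 was lost in 3 and Ccl7 in 5 of the 6 fits (adjusted p up to 0.0873 and 0.0813). Among 24 immediate early genes 2 rose and 1 fell, against 4.45% and 6.87% of all genes tested. Atf3, a stress-induced factor, was at 656 and 1067 in H3.1 G34W and 115 and 148 in H3.3 G34W (log2 fold change 2.67 ± 0.36, adjusted p = 0.00539). Fosl1, the AP-1 subunit Fra-1, was at 3477 and 485 in H3.1 G34W and 14.7 and 67.9 in H3.3 G34W (log2 fold change 5.30 ± 0.95, adjusted p = 0.0149). Klf2, a zinc finger factor, fell, at 435 and 356 in H3.1 G34W and 2421 and 2115 in H3.3 G34W (log2 fold change -2.52 ± 0.28, adjusted p = 0.00274). Fosl1 missed the threshold without either H3.1 wild-type library (adjusted p up to 0.0655).

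Stress and metal response genes rose in small number. Of 24 genes of the integrated stress and unfolded protein response 4 rose and 1 fell (median 0.98). Chac1, which breaks down glutathione, was at 2864 and 4911 in H3.1 G34W and 587 and 1139 in H3.3 G34W (log2 fold change 2.20 ± 0.39, adjusted p = 0.0149). Mthfd2, of mitochondrial one-carbon metabolism, was at 5463 and 5882 in H3.1 G34W and 1759 and 2693 in H3.3 G34W (log2 fold change 1.38 ± 0.28, adjusted p = 0.0236). Neither call held under every alternative. Of 5 metallothionein and zinc response genes 2 rose. Mt2 was at 1288 and 2087 in H3.1 G34W and 44.1 and 120.3 in H3.3 G34W (log2 fold change 4.47 ± 0.51, adjusted p = 0.00293). Mt1 was at 2261 and 2158 in H3.1 G34W and 738 and 672 in H3.3 G34W (log2 fold change 1.65 ± 0.29, adjusted p = 0.0138). Both encode metal-binding proteins, and both H3.1 G34W libraries were above both of H3.3 G34W for each. The call of Mt1 was lost without replicate 1 of H3.1 G34W (adjusted p = 0.0642). Hk2, the hexokinase that opens glycolysis, was at 3364 and 1915 in H3.1 G34W and 300.3 and 531 in H3.3 G34W (log2 fold change 2.66 ± 0.38, adjusted p = 0.00654).

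Genes of S phase, G2 and M phase gave no call. None of 35 S phase genes and none of 28 G2 and M phase genes were called by limma (0 and 0 at an unadjusted p under 0.05). Their libraries did not separate the groups: 0 of 35 and 1 of 28 did not overlap, against 60.0% of all genes tested. Mki67, the proliferation antigen, was at 26339 and 9675 in H3.1 G34W and 7037 and 17157 in H3.3 G34W (log2 fold change 0.54 ± 0.68, adjusted p = 0.635). Replicate 2 of H3.1 G34W and replicate 1 of H3.3 G34W were its low libraries, and Mcm6, a subunit of the replicative helicase, had the same order (11812 and 4981 in H3.1 G34W and 3449 and 7385 in H3.3 G34W). Among 16 CDK inhibitors, D cyclins and other regulators of entry into the cycle, by contrast, 3 rose and 2 fell (median 0.05). Ccnd2, which encodes cyclin D2, rose, at 19585 and 20865 in H3.1 G34W and 5786 and 3736 in H3.3 G34W (log2 fold change 2.12 ± 0.33, adjusted p = 0.00864). Cdk6, a partner of the D cyclins, was at 408 and 256 in H3.1 G34W and 30.0 and 63.4 in H3.3 G34W (log2 fold change 2.86 ± 0.59, adjusted p = 0.0239), and missed the threshold in 4 of the 6 fits without 1 library (adjusted p up to 0.0999). The INK4 inhibitor gene Cdkn2a was at 13.5 and 9.24 in H3.1 G34W and 37.5 and 39.4 in H3.3 G34W (log2 fold change -1.70 ± 0.68, adjusted p = 0.151). Its neighbour Cdkn2b was at 5.18 and 11.5 in H3.1 G34W and 61.9 and 44.8 in H3.3 G34W (log2 fold change -2.61 ± 0.84, adjusted p = 0.0888). For both, the H3.1 G34W libraries were the lower ones, without a call. The other INK4 genes were called lower: Cdkn2c was at 518 and 439 in H3.1 G34W and 1140.3 and 1246 in H3.3 G34W (log2 fold change -1.32 ± 0.28, adjusted p = 0.0262). Cdkn2d was at 597 and 449.7 in H3.1 G34W and 1408 and 1700.4 in H3.3 G34W (log2 fold change -1.58 ± 0.34, adjusted p = 0.0278). Cdkn2c lost its call in 6 and Cdkn2d in 4 of the 6 fits without 1 library (adjusted p up to 0.0919 and 0.0924).

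Chromatin genes gave few calls. None of the 15 H3K36 methyltransferases and H3K36 or H3K27 demethylases, and none of the 16 H3.3 genes and H3 chaperones, were called by limma (2 of each at an unadjusted p under 0.05). The H3.3 gene H3f3a was at 11351 and 13769.8 in H3.1 G34W and 24461 and 13983 in H3.3 G34W (log2 fold change -0.56 ± 0.36, adjusted p = 0.342). The other, H3f3b, was at 24487 and 27488 in H3.1 G34W and 42967 and 35895 in H3.3 G34W (log2 fold change -0.60 ± 0.31, adjusted p = 0.242). The part of transgene reads in these 2 values was not tested. Of 11 PRC2 genes Suz12, a core subunit, rose, at 6379 and 4208 in H3.1 G34W and 1609.5 and 2257 in H3.3 G34W (log2 fold change 1.44 ± 0.30, adjusted p = 0.0256). Phf19, an accessory subunit that reads methylated H3K36, fell and was at 62.2 and 30.8 in H3.1 G34W and 249.9 and 412 in H3.3 G34W (log2 fold change -2.84 ± 0.54, adjusted p = 0.0175). Ezh2, the catalytic subunit, was at 3562 and 2144 in H3.1 G34W and 1304 and 2004 in H3.3 G34W (log2 fold change 0.77 ± 0.33, adjusted p = 0.175). Suz12 missed the threshold in 4 and Phf19 in 2 of the 6 fits without 1 library (adjusted p up to 0.139 and 0.0586). Of 19 PRC1 genes Pcgf5 rose, at 1246 and 613 in H3.1 G34W and 252 and 341 in H3.3 G34W (log2 fold change 1.57 ± 0.38, adjusted p = 0.0408), a call lost in 4 of these fits (adjusted p up to 0.196).

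Replication-dependent histone genes, of which H3.1 itself is a product, were measured in libraries of poly(A)-enriched mRNA although most of their mRNA lacks a poly(A) tail. Of 31 tested in a list that does not hold Hist1h2ao, 8 fell and none rose (median -1.39). The H3 gene Hist1h3d was at 1032 and 1026 in H3.1 G34W and 3489.8 and 5711 in H3.3 G34W (log2 fold change -2.12 ± 0.36, adjusted p = 0.0125). Hist1h4h, which encodes H4, was at 11.999 and 8.08 in H3.1 G34W and 1440.3 and 185 in H3.3 G34W (log2 fold change -5.57 ± 0.89, adjusted p = 0.0101). Hist1h4i, also an H4 gene, was at 134 and 182 in H3.1 G34W and 3968 and 916 in H3.3 G34W (log2 fold change -3.60 ± 0.66, adjusted p = 0.016). Hist1h3d alone fell under each of the 18 alternatives. Near-identical copies may share reads in all of these, and the part of H3.1 transgene reads in the H3 genes was not tested. Ribosomal protein genes went the other way with no call by limma (6 of 53 at an unadjusted p under 0.05): 35 of 53 had both H3.1 G34W libraries above both of H3.3 G34W, against 29.5% of all genes tested, and their median log2 fold change was 0.56. Rpl4 was at 63327 and 79885 in H3.1 G34W and 25882 and 44493 in H3.3 G34W (log2 fold change 1.07 ± 0.39, adjusted p = 0.124).

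The same difference of histone type was then read without the substitution. H3.1 wild type against H3.3 wild type had 568 called genes in the same limma fit (4.50% of those tested), 193 higher (1.53%) and 375 lower (2.97%), although without replicate 1 or 2 of H3.1 wild type none remained at the threshold (2248 and 2128 at an unadjusted p under 0.05). These 4 libraries are not used in the fold changes of H3.1 G34W over H3.3 G34W, though the fit estimates the spread from both. Of the 561 genes higher in H3.1 G34W, 156 were also called higher in H3.1 wild type, which is 27.8% of the 561 and 80.8% of the 193. Of the 867 lower genes 329 were also called lower, 37.9% of the 867 and 87.7% of the 375. The direction was shared by 98.2% of the higher and 98.8% of the lower genes, called or not.

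Sizes were then set side by side. The median log2 fold change of the 561 genes was 1.88 with G34W and 1.56 between the wild types, and that of the 867 genes was -3.20 and -2.65. The genes were chosen on the values with G34W. Both H3.1 wild-type libraries lay above both of H3.3 wild type in 97.5% of the 561 genes, against 38.3% of all genes tested, and below in 97.6% of the 867, against 38.9%. Across the 12611 genes the fold changes with and without G34W correlated at Pearson r = 0.8368 and a Spearman coefficient of 0.7831, as a description over genes that are not independent. Eln was at 13.6 and 9.77 in H3.1 wild type and 39432 and 39418 in H3.3 wild type, Sfrp2 at 6.82 and 2.93 in H3.1 wild type and 4599 and 4732 in H3.3 wild type and Pkp2 at 2009 and 2251 in H3.1 wild type and 31.9 and 25.2 in H3.3 wild type. For all 3 the H3.1 libraries, with or without G34W, lay together and far from both H3.3 groups.

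**Figure D4:**
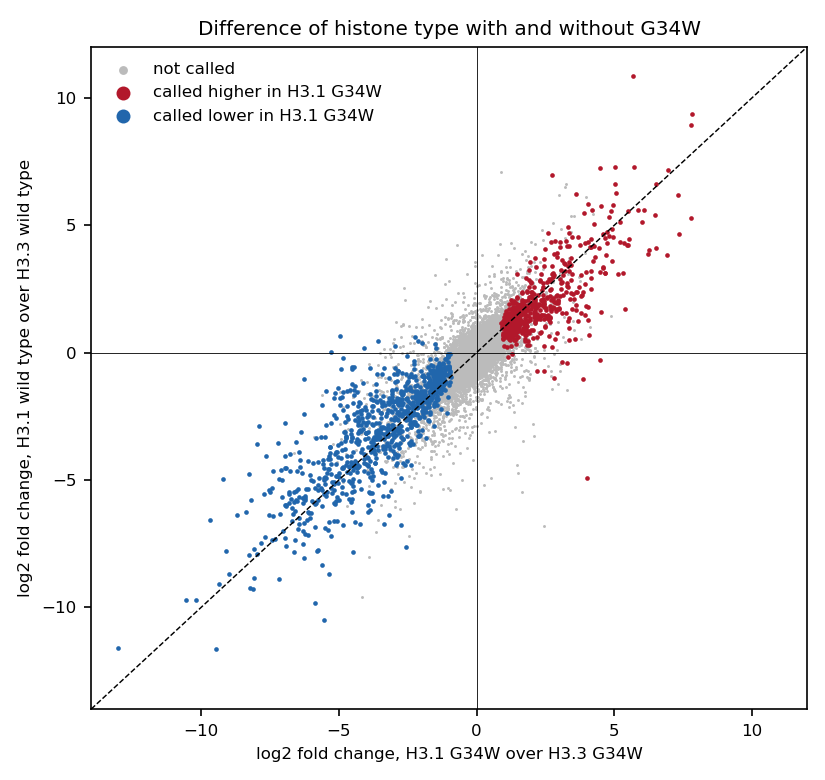
Log2 fold change of H3.1 G34W over H3.3 G34W (x axis) against that of H3.1 wild type over H3.3 wild type (y axis) for the 12611 genes, with genes called higher (red, 561) and lower (blue, 867) in H3.1 G34W and a dashed line of equal change. Called genes lie in the lower left and upper right, with 98.2% and 98.8% on the same side of 0 on both axes.

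Whether the difference between histone types depended on G34W was tested as an interaction. limma called 0 of 12611 genes (smallest adjusted p = 0.296), with 241 at an unadjusted p under 0.05, and the count was 28 with all 8 groups in the fit, 2 with the 2 H3.3 wild-type libraries not averaged and 5 without replicate 2 of H3.3 G34W. The genes named next are from those with the 5 smallest unadjusted p-values each way, with Ccl2 and Robo1 added from the fixed set, and are given as values, without a call. In the Serpina3 cluster of protease inhibitors, whose members are close copies, Serpina3g was at 78.3 and 205 in H3.1 G34W and 4.69 and 9.85 in H3.3 G34W, but at 54.4 and 75.1 in H3.1 wild type and 1972 and 1983 in H3.3 wild type (interaction on the log2 scale 8.95 ± 0.99, unadjusted p = 2.35e-05, adjusted p = 0.296). It was the 1 gene called higher in H3.1 G34W and lower in H3.1 wild type. Serpina3f had the same pattern, at 18.8 and 18.8 in H3.1 G34W and 8.35 and 3.27 in H3.3 G34W and at 17.6 and 19.5 in H3.1 wild type and 860.3 and 879 in H3.3 wild type (7.12 ± 0.99, unadjusted p = 1.16e-04, adjusted p = 0.729). H3.3 wild type held by far the highest level in both.

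Metallothionein Mt2 and chemokine Ccl2 resembled them in part. Mt2 was at 1189 and 1846 in H3.1 wild type and 1724 and 1856 in H3.3 wild type, beside the G34W values given above, so H3.3 G34W was the low group (4.74 ± 0.80, unadjusted p = 4.31e-04, adjusted p = 0.907). Ccl2 was at 2904 and 4342 in H3.1 wild type and 7148 and 7007 in H3.3 wild type (3.80 ± 0.73, unadjusted p = 9.91e-04, adjusted p = 1). Tmem176a, a membrane protein, was low in H3.1 with the substitution and without it, at 17.6 and 16.2 in H3.1 G34W and 128 and 84.2 in H3.3 G34W and at 6.06 and 6.84 in H3.1 wild type and 1468 and 1470.3 in H3.3 wild type (5.08 ± 0.81, unadjusted p = 2.96e-04, adjusted p = 0.876). In the other direction, Mest was at 125 and 125 in H3.1 wild type and 92.0 and 89.1 in H3.3 wild type, so H3.3 G34W was the highest of these 4 groups (-4.05 ± 0.82, unadjusted p = 0.00128, adjusted p = 1), and Arhgef5, listed at 0 in both H3.3 wild-type libraries, was at 2474 and 1389 in H3.1 wild type and 0 and 0 in H3.3 wild type (-5.19 ± 0.81, unadjusted p = 2.61e-04, adjusted p = 0.876). Igfbp2, an IGF-binding protein, was at 229 and 103 in H3.1 G34W and 341 and 569.7 in H3.3 G34W and at 100.1 and 246 in H3.1 wild type and 14.5 and 21.3 in H3.3 wild type (-4.58 ± 0.96, unadjusted p = 0.00164, adjusted p = 1). Robo1 was likewise highest in H3.3 G34W, at 0 and 2.93 in H3.1 wild type and 0 and 1.94 in H3.3 wild type among the wild types (-5.30 ± 1.47, unadjusted p = 0.00741, adjusted p = 1).

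**Figure D5:**
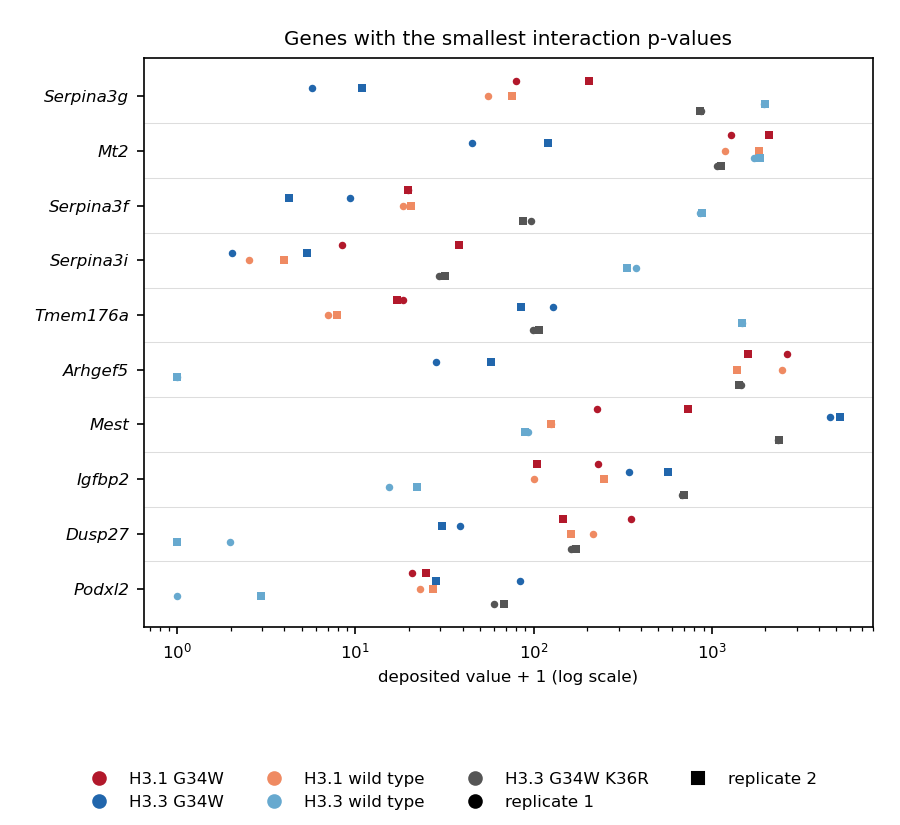
Deposited value plus 1 (log scale) in each library for the 10 genes with the smallest unadjusted interaction p-values, 5 each way, with circles for replicate 1 and squares for replicate 2. Mt2 is low in H3.3 G34W alone (44.1 and 120.3), and Mest is highest there (4590.0 and 5234).

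The called genes were also read in H3.3 groups that carry other changes, against H3.3 wild type, with libraries the comparison of H3.1 G34W and H3.3 G34W does not use for its fold changes. Both libraries of H3.3 G34W K36R lay above both of H3.3 wild type in 93.8% of the 561 higher genes, against 44.8% of all genes tested, and below them in 89.3% of the 867 lower ones, against 45.8%. An H3.3 tail with both changes thus stood on the side of H3.1 G34W for most called genes. H3.3 K27R gave 75.4% above (39.9% of all tested) and 63.1% below (42.7%). H3.3 G34R, the other substitution at this residue, gave 24.4% above (41.6%) and 21.5% below (42.9%), and lay on the opposite side in 62.4% and 68.9%. Among single genes, Eln was at 63.7 and 75.8 in H3.3 G34W K36R and Itih2 at 2443 and 2536, both nearer to the H3.1 G34W libraries than to those of H3.3 G34W. Mest was at 2364 and 2393, nearer to H3.3 G34W on the log scale but nearer to H3.1 G34W in the deposited unit. These 3 were picked after their values were seen. No test of these groups was made here.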

How the data were processed

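mRNA was enriched with a poly(A) selection kit and sequenced in 16 libraries, 2 for each of 8 histone transgenes. The authors deposited 1 table with a signal per gene and library (20325 genes). RSEM 1.2.4 and mm9 are named per the submitters' processing notes, and the name of the deposited table gives a median normalization. The aligner, the annotation and whether counting used strand are not given in the sources used here. Between 41.47% and 47.58% of the values above 0 lay within 0.01 reads of a whole read. Whole counts were therefore not recovered. In each library 100.0% of the lower values lay on hundredths of a read, the form of expected counts times 1 constant per library. A count test had been set for raw or expected counts, but it was not run and limma was kept. Depth, estimated from what 1 read is worth, was 26019532 to 49118720 reads. Intervals (95%) and floors (3 reads per library) cover counting error only. The columns left unused numbered 0, and a second, shorter table was not used here.

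The fit used limma 3.58.1 (R 4.3.3, statmod 1.5.0) with trended and robust eBayes on log2(value + 1). It covered the 12611 genes whose mean over the 4 compared libraries reached 10. H3.1 G34W, H3.3 G34W and H3.1 wild type entered with 2 libraries each and H3.3 wild type, averaged, as 1 sample, which makes 7 samples and 3 residual degrees of freedom. P-values are from two-sided tests, Benjamini-Hochberg adjusted over these genes, with calls under 0.05. A value after ± is the standard error of the fit. Fold changes are on the log2(value + 1) scale, which understates those of low genes. The scripts were tested on simulated data. Groups, lists and rules were chosen with earlier results of these data known.

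Named genes are the 12 with the widest gap each way between the libraries (mean of at least 50 in the higher group, provisional symbols left out), a fixed set of genes, up to 4 members of each list with the smallest p, and the 5 with the smallest interaction p each way. Alternatives changed the pseudocount (0.5, 5), the filter (none, or a mean of 50), the scaling (TMM, written out for these values, or quantile), the eBayes options, the groups in the fit and the averaging of H3.3 wild type. Others added a replicate block or left out 1 library, after which a lone library is assumed to vary like the others.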

Additional observations from a re-analysis of the deposited data

How the results depend on the processing

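Of 182 named genes 123 were called, 70 of them under each of the 18 alternatives. Over all settings the fold changes of named genes kept direction and side of the threshold 3081 times, lost a call 238 times, gained one 112 times and changed sign 9 times; no gene called between H3.1 G34W and H3.3 G34W changed sign. Of the 12 named interaction values none changed sign under any alternative, and calls were gained 16 times. The sign changes came without 1 library, in genes without a call: Cxcl5 (-2.49 to 1.41), Pparg (-1.43 to 0.60), Col2a1 (-2.83 to 1.16), Mki67 (-0.18 to 1.26), Kif20a (-1.24 to 0.13), Cdc20 (-1.03 to 0.055) and Mcm6 (-0.019 to 1.23). The 1428 calls were 525 with the compared groups alone, 5174 with all 8 groups (1420.0 with their close pairs averaged), 2547 with the H3.3 wild-type libraries separate, and 526 to 1784 without 1 library. The 568 calls between the wild types were 4170.0 with all 8 groups, 3103 with those libraries separate and 0 to 1108 without 1 library, 0 being without either H3.1 wild-type library. The 0 interaction calls were 28, 2 and 0 to 5 in these fits. Of the list members 178 were called, against 77 with the compared groups alone, 367 with all 8 groups and 78 to 228 without 1 library. Fits without a library have fewer samples; other causes were not tested. Whether the replicate numbers pair the samples is not in the labels, and the reported fit does not pair them. Replicate differences of H3.1 G34W and H3.3 G34W correlated at -0.2691 across genes. Those of the other pairs among these groups and the wild types correlated at -0.0517 to 0.048. With the replicate block there were 1980.0 calls, 2403 between the wild types and 1 interaction call. With the numbers of H3.1 G34W crossed, chosen after seeing the data, there were 2509 and 3203. The alternatives of pseudocount, filter, scaling and eBayes options gave 1137 to 1671 calls. Genes near the floor of 3 reads are limited by depth.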

Other observations

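Transcription factors of development gave 7 lower and 3 higher of 43 tested (median log2 fold change -0.06, against -0.02 over all genes tested). Tbx2, a T-box repressor, was at 2.07 and 3.08 in H3.1 G34W and 102 and 142 in H3.3 G34W (log2 fold change -5.10 ± 0.68, adjusted p = 0.00506), and Snai1, the Snail repressor of epithelial genes, at 639 and 1089.5 in H3.1 G34W and 3480.3 and 4066 in H3.3 G34W (log2 fold change -2.17 ± 0.31, adjusted p = 0.0065). Both H3.1 G34W libraries were below both of H3.3 G34W for each. Lhx9, a LIM homeobox gene, was at 0 and 0.770 in H3.1 G34W and 65.7 and 56.9 in H3.3 G34W, a ratio of H3.3 G34W over H3.1 G34W of 139 with a 95% counting interval of 24.6 to 5554. None of 11 Hox genes was called by limma (5 at an unadjusted p under 0.05), and they went both ways: Hoxa3 was at 317 and 460.4 in H3.1 G34W and 719.9 and 849 in H3.3 G34W (log2 fold change -1.03 ± 0.32, adjusted p = 0.0776) and Hoxa7 at 656 and 746 in H3.1 G34W and 454 and 387 in H3.3 G34W (log2 fold change 0.74 ± 0.28, adjusted p = 0.139).

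Of 14 cadherins and protocadherins 2 fell and 1 rose, against 6.87% and 4.45% of all genes tested. Cdh10, a type II cadherin, was at 1429.9 and 869 in H3.1 G34W and 4.69 and 104 in H3.3 G34W (log2 fold change 5.51 ± 1.14, adjusted p = 0.0244), and its call was lost in 4 of the 6 fits without 1 library (adjusted p up to 0.182). Pcdh1 was at 16.6 and 6.16 in H3.1 G34W and 162 and 674 in H3.3 G34W (log2 fold change -4.89 ± 0.81, adjusted p = 0.0114), with the call lost without either H3.1 wild-type library (adjusted p up to 0.0512). Among nuclear genes of oxidative phosphorylation 2 of 39 fell, Ndufb3 and Ndufa1 of complex I, but 27 of 39 had both H3.1 G34W libraries below both of H3.3 G34W, against 30.5% of all genes tested (median -0.38). Ndufb3 was at 564 and 541 in H3.1 G34W and 1772 and 1184 in H3.3 G34W (log2 fold change -1.39 ± 0.35, adjusted p = 0.0436). The calls of Ndufb3 and Ndufa1 were each lost in 5 of the 6 fits without 1 library (adjusted p up to 0.182 and 0.184).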
